A study of Mus musculus with 3 samples.

Results

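The genes of cholesterol synthesis and lipoprotein handling described here are 31 of the 18098 nuclear protein-coding genes measured, chosen by symbol: 18 enzymes that build cholesterol, 5 genes that sense sterols and set the rate of synthesis, 6 that carry, take up or release it and 2 that turn it over. They were measured in 3 libraries of 1 group: wild-type cortical neurons from E16 embryos of Swiss-Webster mice, grown on coated plates in neurobasal medium with B27 and given no treatment. No other group was analysed here, so levels are compared between genes and between libraries. The labels do not state whether each library is a culture of its own, so every SD and p-value below describes the 3 libraries alone and may reflect technical spread.

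The brain makes its own cholesterol, because the blood-brain barrier keeps plasma lipoproteins out. Acetyl-CoA is turned through mevalonate into farnesyl diphosphate, then through squalene into lanosterol and cholesterol. When membranes of the endoplasmic reticulum are poor in sterol, SCAP escorts the precursor of the transcription factor SREBP-2 to the Golgi, where it is cut free, and it switches on the genes of synthesis. INSIG proteins hold SCAP back when sterol is plentiful. In the mature brain astrocytes release cholesterol on particles that carry apolipoprotein E, and neurons take these up through receptors of the LDL receptor family.

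Each gene's level is the TPM (read abundance scaled by transcript length and by the library's total) of its longest protein-coding transcript, on mm10, with the mean ± SD of the 3 libraries. Reads could be recovered from the TPM for 20 of the 31 members and ranged between 174 and 18934 per library. The neuronal markers Tubb3, Map2, Rbfox3, Stmn2, Snap25 and Syp were all above 10 TPM in each library, and their summed level was 1898, 1932 and 1715 TPM in libraries 1, 2 and 3. All 10 astrocyte markers were detected too, with a summed level of 820, 860 and 988 TPM. The sum of 8 oligodendrocyte lineage markers was 67.9, 50.5 and 84.7 TPM. Of 7 microglial markers 1 was detected, Aif1, and Tmem119 was at 0. Of 6 fibroblast and vessel markers 2 were detected, Dcn and Pdgfrb, and Cldn5 was at 0. In bulk RNA, fewer cells of a type and less RNA per cell cannot be told apart.

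All 31 members were detected at a mean of at least 1 TPM, against 61.5% of all protein-coding genes. At 10 TPM or more stood 23 of the 31, against 26.4% of all genes, and at 100 TPM or more 4 of the 31, Hmgcs1, Apoe, Sqle and Msmo1, against 1.54%. The synthesis enzymes lay high as a group: their median log2(TPM + 1) was 5.53 ± 0.25 and 16 of 18 reached 10 TPM, while the median of all detected protein-coding genes was 3.18 ± 0.02. The median of the handling and turnover genes was 3.18 ± 0.08, at the level of all detected genes, and that of the sterol-sensing genes 3.88 ± 0.06.

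**Figure D1:**
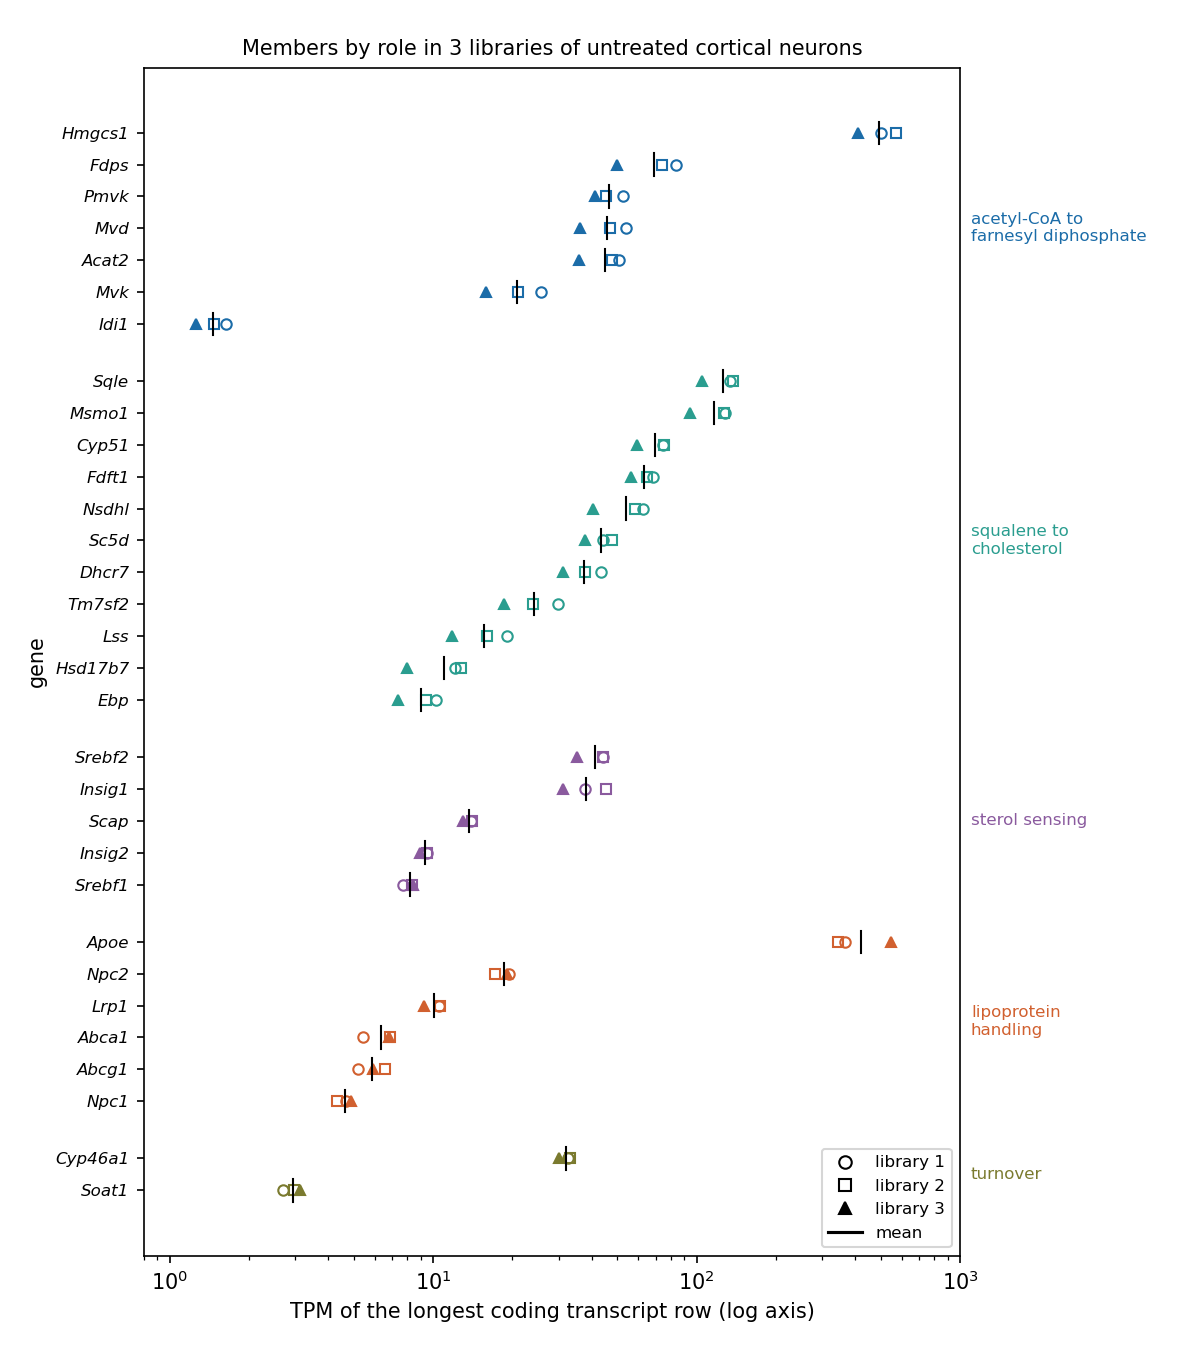
TPM of the longest coding transcript row (horizontal log axis) of the 31 members, ordered by mean within each role, with 1 symbol per library and a bar at the mean. Library 3 is the lowest of the 3 for each of the 18 synthesis enzymes, and Hmgcs1 and Apoe, at 493 and 419.5 TPM, stand above all other members.

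The steps to farnesyl diphosphate were led by Hmgcs1 (chromosome 13, 119690462 to 119708086, plus strand), whose product joins acetoacetyl-CoA and acetyl-CoA into HMG-CoA. It stood at 501, 571 and 408 TPM in libraries 1, 2 and 3, a mean of 493 ± 81.5 TPM and rank 15 among 11134 detected genes. Hmgcs1 alone made up 35.9%, 40.3% and 38.5% of the summed TPM of the 18 enzymes. The other 6 enzymes of this stretch averaged between 1.46 and 69.2 TPM. Acat2, the cytosolic thiolase that makes acetoacetyl-CoA (not the sterol esterifying enzyme sometimes given the same name), stood at 50.97, 47.9 and 35.8 TPM. Of the enzymes that act on mevalonate, the kinase gene Mvk stood at 25.7, 21.05 and 15.9 TPM, the kinase gene Pmvk at 52.5, 45.3 and 41.2 TPM and the decarboxylase gene Mvd at 54.2, 46.9 and 36.1 TPM. Fdps, which condenses the isoprene units into farnesyl diphosphate, stood at 83.6, 74.1 and 49.9 TPM. In Acat2, Mvk, Pmvk, Mvd and Fdps library 1 was the highest and library 3 the lowest.

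Idi1, the isomerase that interconverts the isoprene units, was far below its neighbours in the pathway, at 1.64, 1.47 and 1.26 TPM, rank 10511, with 255, 193 and 174 reads. Its highest row, a short coding model, stood at 3.25 ± 0.634 TPM. Of the 50-base words of its transcript 78.7% occur at no other annotated locus, so reads from the remainder could be lost or shared, and its level is uncertain. The same share was 42.7% for Fdps, which has several annotated copies, 54.1% for Acat2, which shares sequence with Acat3 and Tcp1, and 85.9% for Fdft1. It was above 90% for the other 27 members. Some members overlap other annotated genes, such as Ctsb at Fdft1, Akap9 at Cyp51 and Rmc1 at Npc1 on the opposite strand and Vps51 at Tm7sf2 on the same strand, and whether reads were counted by strand is not stated.

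The 11 enzymes from squalene onward averaged between 8.998 TPM for Ebp and 125 TPM for Sqle. Fdft1, squalene synthase, stood at 68.1, 64.8 and 56.4 TPM. Sqle, the epoxidase that is a control point of the pathway, was the highest of this branch at 134, 137 and 105 TPM, with 18934, 16359 and 13273 reads. On the highest row of each gene Msmo1, at 158, 159 and 119 TPM, was above Sqle, at 137, 140 and 107 TPM. Hmgcs1 exceeded Sqle in 3 of 3 libraries, with a mean log2 difference in TPM + 1 of 1.96 ± 0.08. Lss, which closes the rings to lanosterol, was lower than both squalene enzymes at 19.1, 15.98 and 11.8 TPM.

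The enzymes that trim lanosterol also differed in level. Cyp51, the lanosterol demethylase, stood at 74.7, 74.98 and 59.6 TPM. Of the 3 proteins that remove the methyl groups at the next position, Msmo1, the oxygenase, stood at 128, 127 and 94.8 TPM, Nsdhl, the decarboxylating dehydrogenase, at 62.7, 58.6 and 40.4 TPM and Hsd17b7, the keto-reductase, at 12.1, 12.8 and 7.99 TPM. Msmo1 was thus the highest and Hsd17b7 the lowest of the 3 in each library. The isomerase gene Ebp was the lowest of the branch at 10.3, 9.38 and 7.36 TPM, and the desaturase gene Sc5d stood at 44.0, 47.9 and 37.8 TPM. Dhcr7, the reductase whose loss causes Smith-Lemli-Opitz syndrome in humans, stood at 43.4, 37.6 and 31.01 TPM. It exceeded the related sterol reductase gene Tm7sf2, at 29.8, 23.9 and 18.6 TPM, in 3 of 3 libraries, with a mean log2 difference in TPM + 1 of 0.62 ± 0.09.

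The 18 enzymes shared a pattern between the libraries: each had its lowest value in library 3, against 40.8% of detected protein-coding genes. Of the 18, 13 had their highest value in library 1, against 28.2% of detected genes, and 5 in library 2, against 40.3%. The median log2 ratio of library 3 over library 1 was -0.48 over the 18 enzymes, between -0.74 for Fdps and -0.22 for Sc5d, while the median of all detected genes was -0.01. The median ratio of library 3 over library 2 was -0.38, between -0.68 for Hsd17b7 and -0.14 for Pmvk, with -0.04 for all detected genes. Between libraries 2 and 1 the enzymes differed less, with a median log2 ratio of -0.11 against 0.03 for all detected genes. At least 1.2-fold below both other libraries in library 3 were 14 of the 18 enzymes, against 5.16% of detected genes. The summed TPM of the enzymes was 1396, 1418 and 1060 in libraries 1, 2 and 3. This pattern was noticed in the data, and with 1 group of libraries it has no test.

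**Figure D2:**
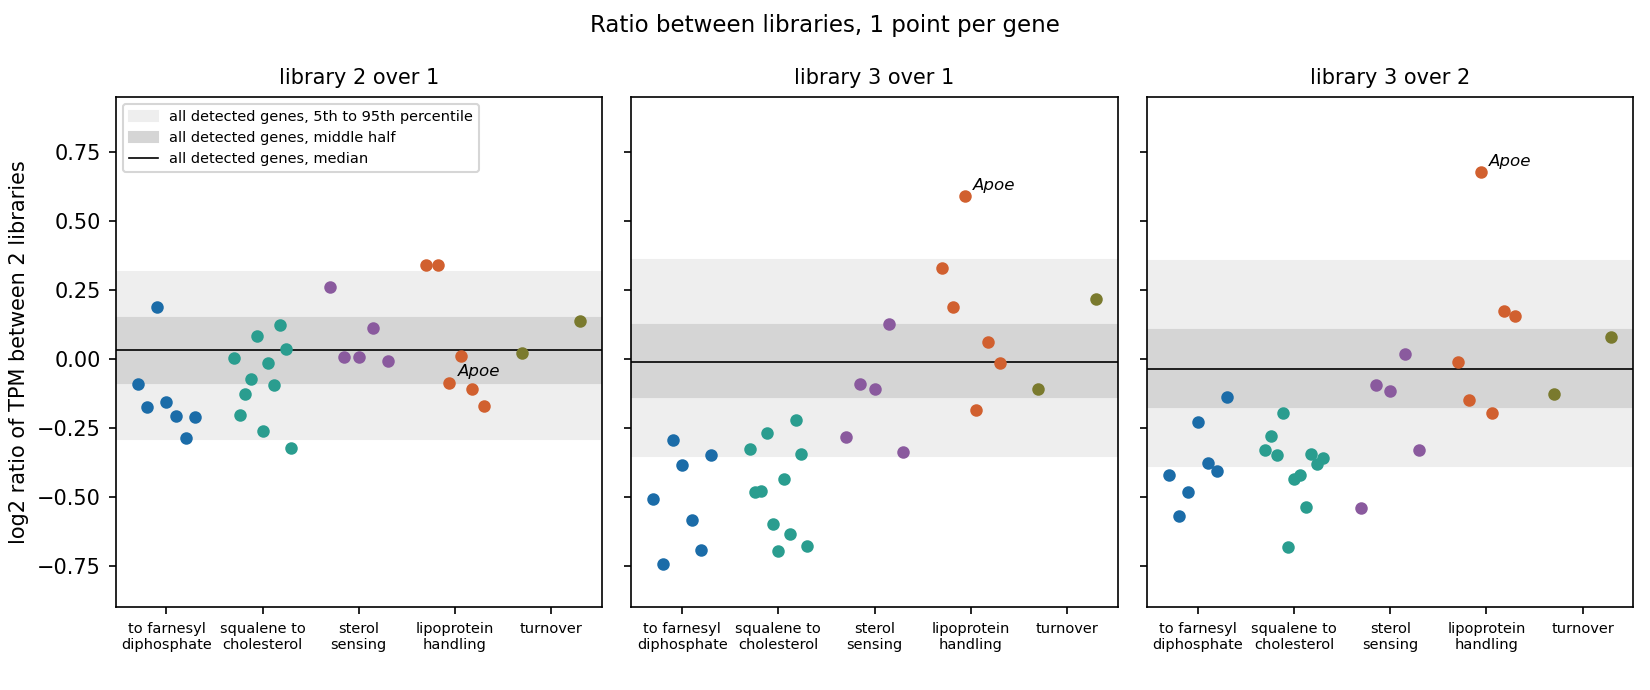
Log2 ratio of TPM between 2 libraries (vertical axis) for each member, by role, in 3 panels for libraries 2 over 1, 3 over 1 and 3 over 2; grey bands give all detected protein-coding genes (5th to 95th and 25th to 75th percentile) and the line their median. All 18 synthesis enzymes lie below 0 in both panels with library 3, where Apoe lies at 0.59 and 0.68.

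For the 13 synthesis enzymes with recovered reads the spread was wider than counting gives. Over all 18 the median coefficient of variation (CV, SD over mean) was 16.5%, against 7.88% over all detected genes, and each of the 18 was above that median. For Sqle the CV was 13.96% where counting of its reads alone gives 0.792%, and for Msmo1 16.2% where counting gives 0.957%. Over the 20 members with recovered reads the CV was between 1.26 times the counting error, for Insig2, and 17.6 times, for Sqle. The summed neuronal markers were also lowest in library 3. Tubb3, Map2, Stmn2 and Snap25 were lowest there, while Rbfox3 was lowest in library 2 and Syp in library 1. The summed astrocyte markers were highest in library 3, with 6 of the 10 at their highest there, and so were 5 of the 8 oligodendrocyte lineage markers. The part of cell makeup in the pattern of the enzymes was not tested.

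**Figure D3:**
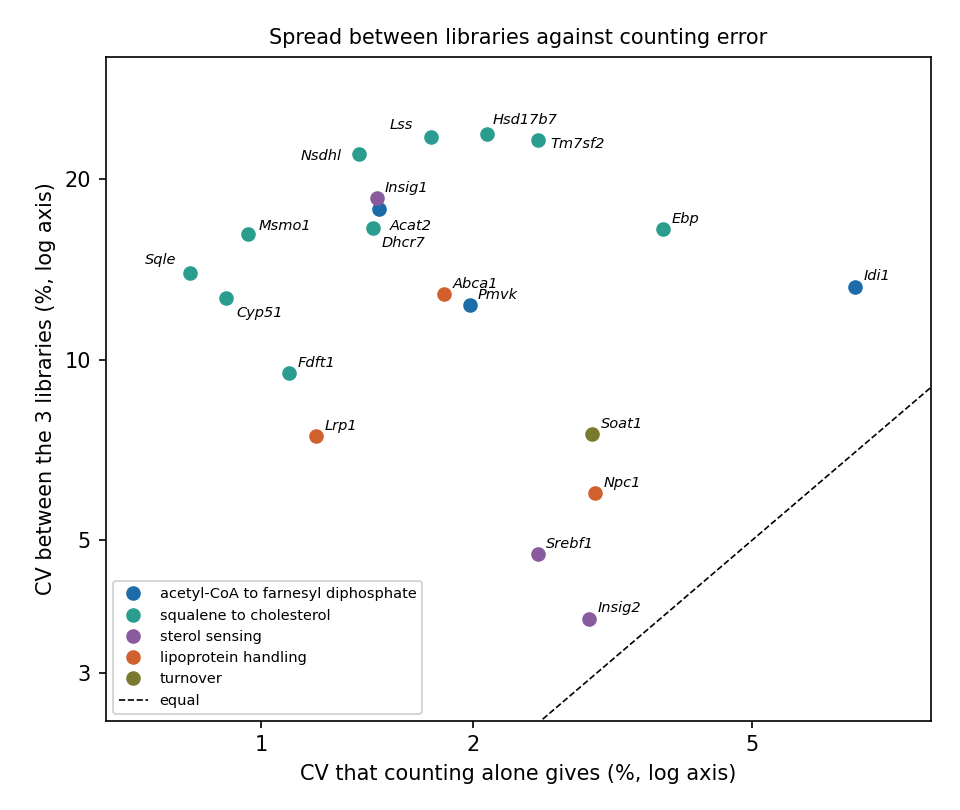
CV between the 3 libraries (vertical log axis) against the CV that counting of the recovered reads alone gives (horizontal log axis), 1 point for each of 20 members, coloured by role; the dashed line marks equality. All 20 points lie above the line, with Insig2 the nearest at a ratio of 1.26.

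Of the 5 sterol-sensing genes 4 were lowest in library 3, against 40.8% of detected genes. With 5 genes these shares cannot be told apart. For 2 of the 4, Scap and Insig2, both ratios with library 3 lay between the 25th and 75th percentile of all detected genes. At least 1.2-fold below both other libraries in library 3 were 2 of the 5, Srebf2 and Insig1, against 5.16% of detected genes. Srebf2 (chromosome 15, 82147266 to 82205376, plus strand), which encodes SREBP-2, the main activator of cholesterol synthesis, stood at 44.3, 44.1 and 35.1 TPM. Insig1 (chromosome 5, 28071363 to 28078662, plus strand), itself a target of SREBP, stood at 37.7, 45.2 and 31.03 TPM. Their log2 ratios in library 3 were -0.34 and -0.28 over library 1 and -0.33 and -0.54 over library 2. The genes of the other regulators varied less: Scap stood at 13.99, 14.1 and 12.98 TPM, a CV of 4.41%. Insig2, the isoform that sterol does not switch through SREBP, stood at 9.47, 9.51 and 8.90 TPM, a CV of 3.70%. Srebf1, which encodes the SREBP-1 forms that favour fatty acid synthesis, stood at 7.71, 8.32 and 8.42 TPM, with its lowest value in library 1.

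Of each paired regulator 1 gene was the higher in every library. Srebf2 exceeded Srebf1 by 2.20 ± 0.23 on the log2(TPM + 1) scale, with 5.05 times its mean TPM, and Insig1 exceeded Insig2 by 1.91 ± 0.22, with 4.09 times. An exact two-sided sign-flip permutation test over the libraries gave p = 0.25 for each of the 8 pairs compared, 0.25 after Benjamini-Hochberg adjustment, the smallest value that 3 libraries allow.

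Promoter sequence was compared because SREBP acts together with the trimeric factor NF-Y at genes of this pathway. RefSeq windows (GRCm38.p6, 250 bases before to 50 after an annotated start) were matched for 26 of the 31 members and 13913 genes in all, taking the window nearest to the start of the row measured. On both strands 3 motifs were sought: TCACNCCA, a core of the sterol regulatory element, of which TCACNCCAC is the longer form; CACGTG, the E-box, which reads the same on both strands; and CCAAT, the NF-Y box, which reads ATTGG on the other strand. Apart from the shorter form within the longer, no match overlapped another in the members. The RefSeq start lay up to 453 bases from the start of the row measured, in Pmvk. For Msmo1 it lay 214 bases inside the row, so the matches of Msmo1 fall within the span of that row. Shown, as the part 220 to 21 bases before the RefSeq start, are 3 synthesis enzymes of high level or many matches, the 2 sterol-sensing genes that varied most and Apoe for contrast, 5′ to 3′ along each gene with matches in capitals. They lie at chr13:119690131-119690330 (plus strand), chr8:64733599-64733798 (minus strand), chr5:114444049-114444248 (plus strand), chr5:28071192-28071391 (plus strand), chr15:82147049-82147248 (plus strand) and chr7:19699209-19699408 (minus strand) for Hmgcs1, Msmo1, Mvk, Insig1, Srebf2 and Apoe.
Hmgcs1: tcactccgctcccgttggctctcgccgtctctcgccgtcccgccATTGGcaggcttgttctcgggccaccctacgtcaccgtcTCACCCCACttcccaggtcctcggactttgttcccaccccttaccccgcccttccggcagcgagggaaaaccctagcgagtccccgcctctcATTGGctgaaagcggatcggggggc
Msmo1: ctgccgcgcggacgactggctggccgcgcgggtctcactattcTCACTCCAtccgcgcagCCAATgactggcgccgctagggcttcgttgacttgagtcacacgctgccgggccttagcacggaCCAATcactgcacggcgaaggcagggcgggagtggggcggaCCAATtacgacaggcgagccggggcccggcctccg
Mvk: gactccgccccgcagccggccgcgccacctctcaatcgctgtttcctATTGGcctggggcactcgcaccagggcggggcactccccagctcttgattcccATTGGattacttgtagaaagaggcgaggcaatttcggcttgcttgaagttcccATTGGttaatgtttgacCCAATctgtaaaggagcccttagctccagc
Insig1: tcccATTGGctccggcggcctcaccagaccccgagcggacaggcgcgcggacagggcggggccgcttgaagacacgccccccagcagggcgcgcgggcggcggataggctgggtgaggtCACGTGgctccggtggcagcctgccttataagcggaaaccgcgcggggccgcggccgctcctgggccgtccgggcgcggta
Srebf2: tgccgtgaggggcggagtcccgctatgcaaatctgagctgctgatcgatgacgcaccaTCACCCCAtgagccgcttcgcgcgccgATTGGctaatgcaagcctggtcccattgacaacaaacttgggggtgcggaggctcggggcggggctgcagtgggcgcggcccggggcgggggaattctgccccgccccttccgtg
Apoe: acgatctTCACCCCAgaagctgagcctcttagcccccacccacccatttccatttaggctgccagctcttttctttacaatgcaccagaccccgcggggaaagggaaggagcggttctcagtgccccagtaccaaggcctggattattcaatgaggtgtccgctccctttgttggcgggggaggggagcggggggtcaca

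The NF-Y box was in 12 of the 15 synthesis promoters matched (80.0%), against 38.6% of 8772 promoters of detected genes and 37.8% of all 13913. At least 2 matches were in 8 of the 15 (53.3%), against 15.2% of detected genes. Mvk had 5 matches in its window and Hmgcs1 and Nsdhl 4 each, while Acat2, Pmvk and Dhcr7 had none. For Dhcr7 and Pmvk another annotated start held the box, so that 14 of 15 had it when all windows of a gene were read, against 43.4% of detected genes. In the sterol-sensing genes 2 of 5 promoters held the box (40.0%), those of Srebf2 and Insig1, and 0 of 5 held at least 2 matches. When all windows of a gene were read 4 of these 5 had it. In the handling and turnover genes 3 of 6 promoters held it, and Apoe, Abca1 and Lrp1 did not. TCACNCCA was in 4 of the 26 member promoters (15.4%), those of Hmgcs1, Msmo1, Srebf2 and Apoe, against 3.29% of detected genes, and the longer TCACNCCAC in 1, Hmgcs1, against 1.04%. CACGTG was in 5 of the 26 (19.2%), Hsd17b7, Sc5d, Insig1, Scap and Abca1, against 10.6%. A match describes letters in the window and is not a measured binding site.

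**Figure D4:**
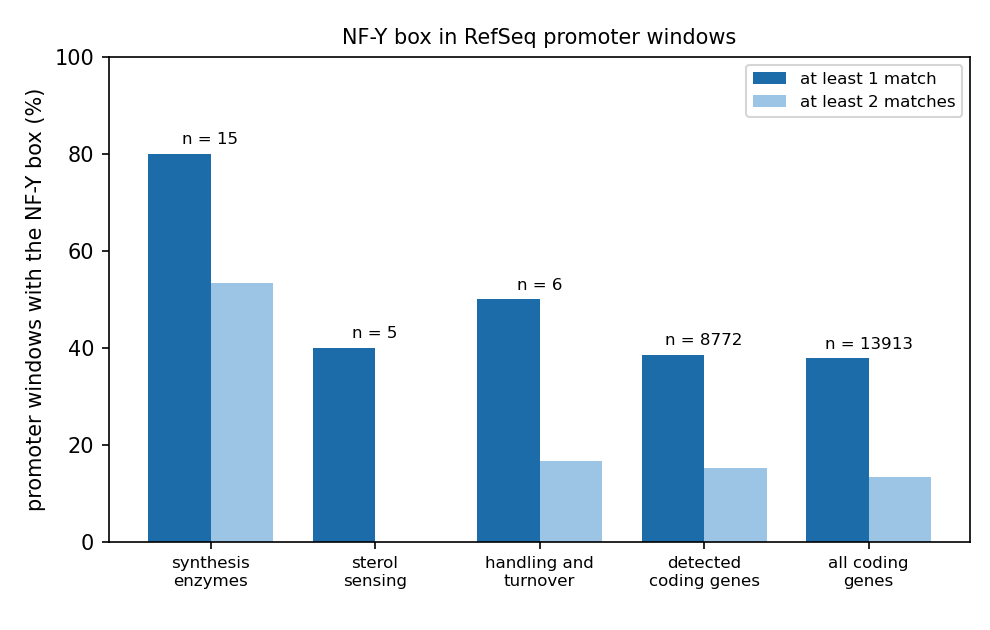
Percentage of RefSeq promoter windows with at least 1 and at least 2 matches of the NF-Y box (vertical axis, from 0), in synthesis, sterol-sensing and handling genes and in detected and all protein-coding genes, with the number of windows above each pair of bars. The 15 synthesis promoters stand at 80.0% and 53.3%, against 38.6% and 15.2% of detected genes.

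Among the genes of lipoprotein handling Apoe (chromosome 7, 19696109 to 19699166, minus strand), the lipid carrier of brain particles, stood apart. Its level was 365, 344 and 549.6 TPM in libraries 1, 2 and 3, rank 25 among detected genes, with a CV of 26.96%, above 98.3% of detected genes. Library 3 was the highest, where every synthesis enzyme was lowest, and the log2 ratio of library 3 was 0.59 over library 1 and 0.68 over library 2. The highest row of Apoe, a coding model of 456 bases, stood at 900, 853 and 1320.2 TPM and had the same order of libraries. The astrocyte markers moved with it in part: Aldoc stood at 121, 110.3 and 151.6 TPM, Sparcl1 at 314, 321.5 and 387 TPM and Gja1 at 33.6, 41.2 and 50.1 TPM, while S100b at 4.06, 2.79 and 2.64 TPM and Aldh1l1 at 10.99, 11.8 and 9.63 TPM were lowest in library 3. The oligodendrocyte lineage markers Olig1, Olig2, Pdgfra, Sox10 and Cspg4, 5 of the 8 listed, were lowest in library 2 and highest in library 3, as Apoe was. Of these Olig2 stood at 15.1, 10.1 and 22.7 TPM and Pdgfra at 11.5, 4.94 and 18.4 TPM. The part of these markers in the level of Apoe was not tested.

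The exporters that load sterol onto particles were low and close to each other. Abca1, which lipidates apolipoprotein E, stood at 5.41, 6.84 and 6.79 TPM, and Abcg1, which adds sterol to formed particles, at 5.18, 6.55 and 5.90 TPM. Both were lowest in library 1. Abca1 exceeded Abcg1 in 3 of 3 libraries, but only by 0.09 ± 0.07 on the log2(TPM + 1) scale (exact sign-flip p = 0.25).

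Lrp1, a large receptor that takes up apolipoprotein E particles in neurons and glia, stood at 10.5, 10.6 and 9.26 TPM, and Apoe exceeded it in 3 of 3 libraries, with a mean log2 difference in TPM + 1 of 5.21 ± 0.47. Npc2 and Npc1, which hand cholesterol out of the lysosome one after the other, stood at 19.4, 17.2 and 19.2 TPM and at 4.67, 4.33 and 4.87 TPM. Both were lowest in library 2, and the soluble carrier Npc2 exceeded the membrane protein Npc1 by 1.80 ± 0.04 with a nearly constant difference of 1.84, 1.77 and 1.78 in libraries 1, 2 and 3.

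Of the turnover genes Cyp46a1 (chromosome 12, 108334377 to 108362231, plus strand), the neuronal hydroxylase whose oxysterol product lets cholesterol leave the brain, stood at 32.5, 33.01 and 30.2 TPM. Soat1, which esterifies cholesterol for storage, stood at 2.69, 2.96 and 3.13 TPM, with 1156, 1073 and 1197 reads. Cyp46a1 was the higher in 3 of 3 libraries, by 3.07 ± 0.14 on the log2(TPM + 1) scale, and had a CV of 4.73%. The 2 genes and the 6 of lipoprotein handling had a median log2 ratio of 0.12 between libraries 3 and 1 and 0.03 between libraries 3 and 2. Of these 8 genes 2, Lrp1 and Cyp46a1, were lowest in library 3 (25%), against 40.8% of all detected genes. So few genes cannot tell these shares apart.

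In the order of mean level the 31 members ran from Hmgcs1 to Idi1, and 15 of the 30 neighbouring pairs kept their order in all 3 libraries. Hmgcs1 and Apoe changed places, with Hmgcs1 higher in libraries 1 and 2 and Apoe in library 3. This holds for the longest coding rows. On the highest row Apoe, at 900, 853 and 1320 TPM, exceeded Hmgcs1, at 501, 571 and 408 TPM, in every library. The 7 genes from Pmvk through Mvd, Acat2, Sc5d, Srebf2 and Insig1 to Dhcr7, all between 37.3 and 46.3 TPM, had no neighbours that kept their order in all libraries.

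Of 46 other genes of the pathway 45 were measured, 32 of them at 1 TPM or more, against 61.5% of all protein-coding genes, and 19 at 10 TPM or more, against 26.4%, with a median of 3.19 ± 0.14 on the log2(TPM + 1) scale over the 45. Among the highest, Clu, another apolipoprotein made by astrocytes, stood at 60.1, 65.9 and 83.2 TPM, highest in library 3 like Apoe. Acat1, the mitochondrial thiolase, stood at 44.2, 43.4 and 42.2 TPM and Scarb2, a lysosomal membrane protein, at 31.8, 35.2 and 38.2 TPM. Library 3 was the lowest for 21 of the 32 detected, against 40.8% of all detected genes. At least 1.2-fold below both other libraries in library 3 were 12 of the 45, against 5.16%. The sterol-responsive transfer protein gene Stard4, chosen after its values were seen, stood at 29.8, 32.5 and 18.5 TPM. Soat2, the esterifying enzyme of liver and gut, was not detected at 0.0677 ± 0.0455 TPM, nor was Nr1h3 at 0.0723 ± 0.0170 TPM. The related gene Nr1h2, which encodes the other sterol-sensing LXR receptor, stood at 6.64, 6.61 and 7.02 TPM.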

How the data were processed

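The authors deposited TPM per transcript for 3 poly-A libraries made with a strand-specific kit, in a table of 84660 rows that names GENCODE M4 as its models. The submitters' processing notes list Trimmomatic, TopHat, Bowtie, HTSeq and the build mm10, without versions, roles or order. How reads that map to several places were counted is not stated.

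Rows were matched by transcript ID to the later release M21 (82970 matched), whose types and lengths chose the longest coding row; the row's ends differ between the releases in 11 of the 31 members, Hmgcs1 and Apoe among them, and for these no reads were recovered. A gene's value is its longest protein-coding row, never a sum, since rows of a gene share reads. Detected means a mean of at least 1 TPM. TPM times length fell on whole steps (within 0.01) in 99.8%, 99.9% and 99.9% of 69510 rows in libraries 1, 2 and 3, which gave reads: 22.7, 20.1 and 19.7 M in 13197 longest coding rows. Counting errors cover counting only. No library repeated another (Pearson's r 0.994, 0.992 and 0.991 over log2(TPM + 1) of the detected genes, which are not independent replicates).

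Pairs were compared within libraries by an exact two-sided sign-flip permutation. Words of 50 bases were compared between M21 transcripts. In 3892 of 3920 promoter windows at an unchanged row start, bases 1 to 30 after the start equalled the transcript. All members were named, and of the other pathway genes the 5 highest and any at 0 were to be named, some of which are not reported here. Members, lists, pairs and motifs were chosen with earlier results of these data known. The calculations were tested on simulated data, with Python 3.11.15, pandas 2.3.3, numpy 2.4.6 and scipy 1.17.1.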

Additional observations from a re-analysis of the deposited data

How the results depend on the processing

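All 31 members were detected in each alternative except detection at 5 TPM, which kept 28. The synthesis median of 5.53 became 7.76, and the handling median of 3.18 became 5.30, when scaled to nuclear protein-coding genes, a step that raises all genes. The handling median was 3.43 on the highest row and 3.02 with a pseudocount of 0.1. Leaving out each library in turn gave 5.44 to 5.65 for the synthesis median and 3.14 to 3.21 for the handling median. The 8 pair differences kept their sign in every alternative; the closest to 0, Abca1 minus Abcg1, was 0.05 to 0.12 when each library was left out. On the highest row 17 of 18 synthesis enzymes were lowest in library 3, all but Idi1; the count was 18 after scaling and 14 of 14 among enzymes with at least 90% unique words, alternatives chosen after seeing the data. The median log2 ratio of the enzymes for library 3 over 1 was -0.50 on the highest row and -0.44 after scaling, and for 3 over 2 -0.41 and -0.33. No paired analysis was possible because the libraries form 1 group, so there are no samples of another group to pair them with; the pairs above are genes within a library. Rows of a gene share reads, so single levels are approximate: in 4 of the 31 members the highest row was at least 1.5 times the longest.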
